A study of Mus musculus with 6 samples.

Results

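Respiratory complex I, the NADH:ubiquinone oxidoreductase of the mitochondrial inner membrane, was followed through the 45 genes whose symbol starts with Nduf, out of 19241 genes in the table. Of these, 7 carry the prefix Ndufaf, which marks assembly factors, and 38 are named as subunits. Among the 38, Ndufa4 and its relative Ndufa4l2 were kept apart, because the Ndufa4 protein is found with cytochrome oxidase, which left 36 complex I subunits. The rule that picked the members uses the gene symbol and no measured value.

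RNA came from the whole interscapular brown adipose depot of newborn mice and was sequenced in bulk. The 3 WT libraries came from mice labelled as carrying floxed Fstl1, with no deletion named. The 3 KO libraries came from mice labelled Myf5-Fstl1 KO, which lack the gene for the secreted glycoprotein follistatin-like 1 in cells descended from Myf5-expressing precursors, a lineage that yields much of this depot and also skeletal muscle. Cells of the depot outside that lineage keep the gene.

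Complex I takes electrons from NADH, passes them through flavin and iron-sulfur clusters to ubiquinone, and pumps protons across the inner membrane. Its peripheral arm holds the N module, which oxidizes NADH, and the Q module, which reduces quinone, while its membrane arm holds the proton pumps. Some core subunits are encoded in the nucleus and the others, the ND proteins, in mitochondrial DNA. The other subunits are accessory, and assembly factors help build the complex without staying in it. In brown fat, uncoupling protein 1 dissipates the proton gradient that complex I and the other pumps build, and the energy is released as heat.

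Values are FPKM, a read count scaled to transcript length and to library size. Values of single libraries stand in the order of replicates 1, 2 and 3. Fold changes are differences, KO minus WT, on the log2(FPKM + 1) scale, tested with limma across the 13331 genes averaging 0.5 FPKM or more and called at a Benjamini-Hochberg adjusted p under 0.05. Fstl1 itself was at 55.5, 130.04 and 54.4 FPKM (WT) against 7.93, 13.1 and 8.77 FPKM (KO) (log2 fold change −2.79, SE 0.33, limma adjusted p 0.00979, n = 3 each). The labels give no sex, but Xist was at 44.8 FPKM or more in each WT library and at most 0.92 in each KO library, while 4 Y-linked genes were at 7.39 FPKM or more in each KO library and at most 0.23 in WT. Sex therefore coincided with genotype in these libraries, and the effects of the 2 cannot be told apart for any gene below. The tissue markers were present, with Ucp1, Cidea and Fabp4 detected in all 6 libraries. WT replicates 1 and 3 lay at opposite ends for most subunits. Nothing in the labels says that the libraries come from separate animals, so the p-values measure the spread between these samples.

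No Nduf gene passed the threshold: 0 of 45 were called by limma, where 2.21% of all tested genes were called (1.01% lower and 1.21% higher in KO). The 36 subunits had a median log2 fold change of −0.07 and a range from −0.46 (Ndufb7) to 0.10 (Ndufa7). The 7 assembly factors had a median of −0.18, which ran from −0.38 without WT replicate 1 to −0.10 without WT replicate 2. They include the 3 Nduf genes whose KO values all lay under the lowest WT value, Ndufaf1, Ndufaf4 and Ndufaf5. That is 3 of the 45, where 11.4% of all tested genes lay the same way. The median over all tested genes was 0.01. In all, 31 of the 45 had a negative and 14 a positive fold change. At an unadjusted p under 0.05 there were 2 Nduf genes, Ndufaf1 and Ndufaf4, both lower, against 19.2% of all tested genes (8.6% lower in KO). These are bulk libraries, in which fewer cells of a type and less RNA per cell cannot be told apart.

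**Figure D1:**
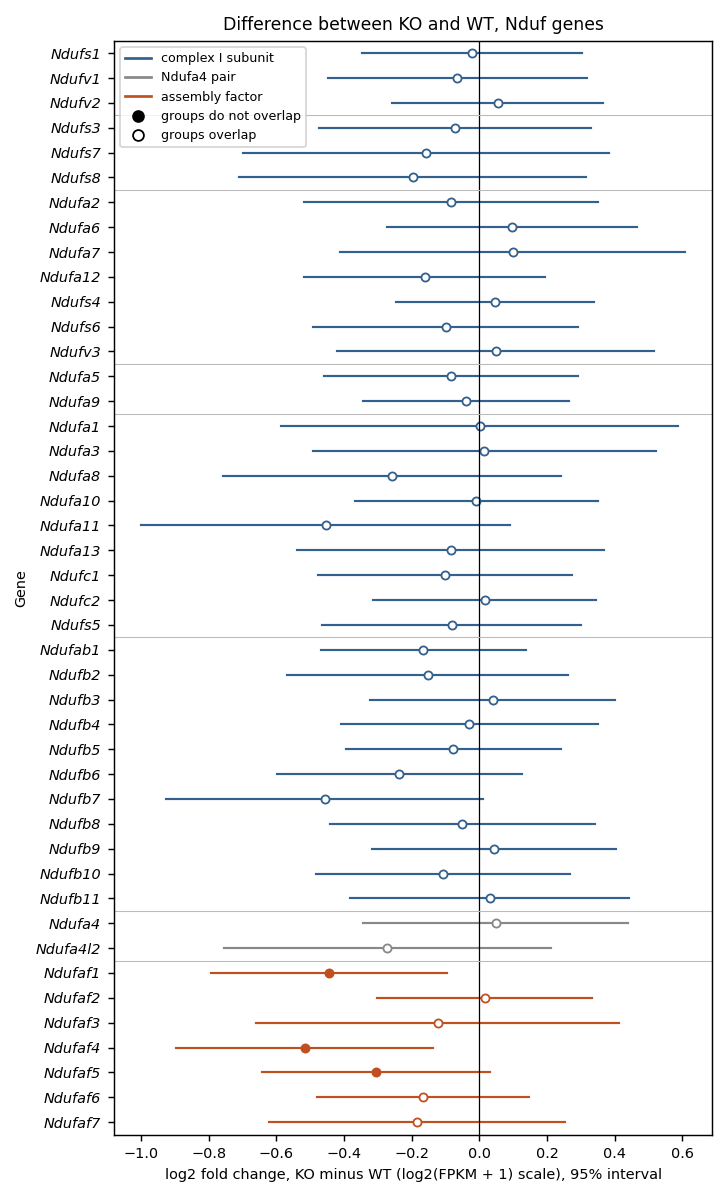
Difference between KO and WT for 44 Nduf genes on the log2(FPKM + 1) scale (x axis), one gene per row, as the limma estimate (circle) with its 95% interval (line); filled circles mark genes whose WT and KO values do not overlap (n = 3 each). All 35 subunit intervals drawn include 0, and the intervals of the assembly factors Ndufaf1 and Ndufaf4 lie below it.

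The 95% intervals, which are not adjusted for the number of genes, show how precisely each fold change was measured. The half-width of the 95% interval ran from 0.29 to 0.59 on the log2 scale over the 36 subunits, with a median of 0.38. The highest upper bound among subunits was 0.61 (Ndufa7), and the lowest lower bound was that of Ndufa11, described further on. A subunit change inside these half-widths could not be told from the spread between libraries, and the missed threshold does not show that levels were equal. Changes beyond their half-width could also miss the adjusted threshold, as those of Ndufaf1 and Ndufaf4 did.

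Among the assembly factors, Ndufaf4 had the largest difference of any Nduf gene. This factor acts early, in building the quinone-reducing part of the complex. Ndufaf4 (Entrez gene 68493, chromosome 4, 24898083 to 24905001, plus strand, GRCm38.p6) was at 47.4, 36.6 and 34.1 FPKM (WT) against 28.4, 29.3 and 23.4 FPKM (KO). Every KO library was below every WT library, and WT replicate 1 was the highest. Group means were 39.3 ± 7.06 FPKM for WT and 27.04 ± 3.15 FPKM for KO (SD, n = 3 each), with a log2 fold change of −0.52 (SE 0.17, 95% interval −0.90 to −0.14, limma adjusted p 0.143). It passed in 2 of 20 alternative fits: once a trend of each library on GC content and transcript length had been subtracted (−0.69, limma adjusted p 0.0243), and with array weights (−0.41, limma adjusted p 0.0273). With that trend removed and the replicate number as a block it did not pass (limma adjusted p 0.057). Both fits in which Ndufaf4 passed called more genes over all, 3181 with array weights against 295 in the main fit.

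Ndufaf1, also called CIA30, is a member of the membrane-bound assembly machinery that builds the proximal part of the membrane arm. Ndufaf1 (Entrez gene 69702, chromosome 2, 119655446 to 119662839, minus strand) was at 46.8, 48.9 and 39.2 FPKM (WT) against 37.5, 31.4 and 29.4 FPKM (KO). The groups did not overlap, though WT replicate 3 and KO replicate 1 lay close together. The log2 fold change was −0.45 (SE 0.15, 95% interval −0.79 to −0.10, limma adjusted p 0.168), and KO held 72.9% of the WT mean. When each library was scaled to a common sum, Ndufaf1 overlapped between the groups and Ndufaf4 and Ndufaf5 did not.

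Ndufaf5, a factor that modifies the Ndufs7 subunit during assembly, was the least abundant Nduf gene. Ndufaf5 (Entrez gene 69487, chromosome 2) was at 6.69, 8.90 and 7.48 FPKM (WT) against 6.17, 5.91 and 5.89 FPKM (KO). The KO values were tightly grouped below the lowest WT library, WT replicate 1. The log2 fold change was −0.31 (SE 0.15, limma adjusted p 0.305). Having 3 Nduf genes with all KO values lower and 0 with all KO values higher compares with 11.4% and 13.6% of all tested genes, or 24.9% in either direction.

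**Figure D2:**
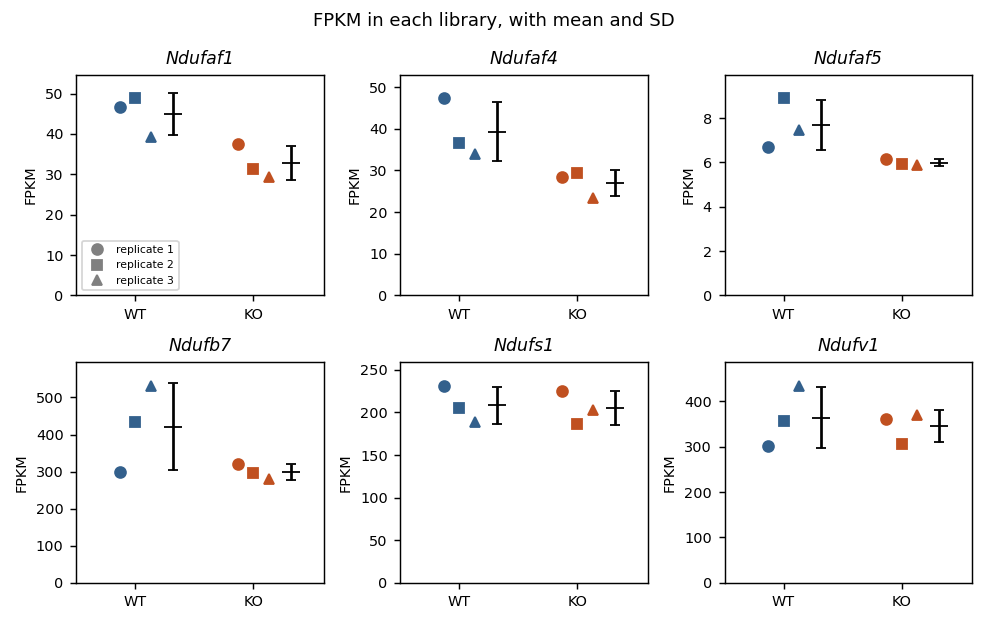
FPKM (y axis, from 0) in each WT and KO library for 6 Nduf genes; the symbol shape gives the replicate number, and the bar beside each group its mean and SD (n = 3). The 3 assembly factors in the top row do not overlap between groups, while Ndufb7, Ndufs1 and Ndufv1 do.

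The other assembly factors overlapped between groups. Ndufaf2, which guides late steps at the N module, was nearly level, with WT means of 31.5 ± 3.68 and KO means of 31.8 ± 1.06 FPKM (SD, n = 3 each; log2 fold change 0.02). Ndufaf3, a partner of Ndufaf4 in early assembly, ran from 9.10 to 17.5 FPKM in WT and from 11.2 to 14.7 FPKM in KO. Ndufaf6 ran from 16.0 to 18.6 FPKM in WT and from 14.2 to 16.1 FPKM in KO, with a log2 fold change of −0.17. Ndufaf7, a methyltransferase that acts in early assembly, ran from 12.7 to 18.0 FPKM in WT and from 10.8 to 16.6 FPKM in KO, with a log2 fold change of −0.18 (−0.04 without KO replicate 3 and −0.33 without KO replicate 1). The gene now named Ndufaf8, listed under the older symbol 1810043H04Rik and so outside the 45, had a log2 fold change of −0.34 (limma adjusted p 0.435) and overlapped.

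Assembly factors that do not carry the Nduf name were measured beside them. There were 12 of them in the table, among them Ecsit, Acad9 and Tmem126b, which act in the same membrane-arm machinery as Ndufaf1. None passed in limma (0 of 12, and 0 at an unadjusted p under 0.05), where 2.21% and 19.2% of all tested genes did. In these 12 genes, 9 had a negative fold change, and the median was −0.14. The smallest p-values belonged to Ecsit (log2 fold change −0.32, limma adjusted p 0.363) and Tmem126a (−0.24, 0.38). Tmem126a was at 76.5, 80.6 and 74.7 FPKM (WT) against 67.1, 71.8 and 57.6 FPKM (KO), and it was the single gene of these 12 without overlap between groups. Over all tested genes 24.9% did not overlap, with all KO values lower in 11.4%.

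Upstream sequence is shown for the 2 assembly factors with the largest differences and for Ndufa11, the subunit with the lowest level, because Ndufaf4 and Ndufa11 share a match to the core of the binding motif of NRF1, a transcription factor known for controlling nuclear genes of mitochondria. Each line gives the 250 bases before the transcript start used in the RefSeq promoter table (GRCm38.p6), which for Ndufaf1 lies 5 bases inside the outer limit of the gene, read 5′ to 3′ on the gene's strand, with the motif in capitals: CGCATGCG, the core of the NRF1 motif, and, in Ndufaf1, CCGGAAG for the ETS family, to which the mitochondrial gene regulator GABP belongs. The regions are chr4:24897833-24898082 (plus strand), chr17:56717512-56717761 (plus strand) and chr2:119662835-119663084 (minus strand).
Ndufaf4: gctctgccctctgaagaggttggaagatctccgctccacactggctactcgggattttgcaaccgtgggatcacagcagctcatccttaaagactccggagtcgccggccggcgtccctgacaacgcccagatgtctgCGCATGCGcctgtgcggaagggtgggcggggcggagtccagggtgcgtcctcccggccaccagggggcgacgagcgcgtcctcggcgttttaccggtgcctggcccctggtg
Ndufa11: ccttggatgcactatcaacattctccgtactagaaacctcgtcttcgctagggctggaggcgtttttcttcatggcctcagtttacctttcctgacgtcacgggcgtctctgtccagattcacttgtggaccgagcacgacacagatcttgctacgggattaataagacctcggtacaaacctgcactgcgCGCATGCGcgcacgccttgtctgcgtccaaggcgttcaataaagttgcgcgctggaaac
Ndufaf1: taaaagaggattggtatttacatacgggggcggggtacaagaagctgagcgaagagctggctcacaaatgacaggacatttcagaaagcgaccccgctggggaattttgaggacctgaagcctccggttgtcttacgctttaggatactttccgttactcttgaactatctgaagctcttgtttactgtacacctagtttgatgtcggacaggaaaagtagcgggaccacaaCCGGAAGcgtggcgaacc

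Promoter windows of 300 bases (250 before to 50 after the start) were available for 39 of the 45 genes, and 5 motifs, chosen after the values were seen, were searched on both strands. CGCATGCG, which reads the same on both strands, was in 4 of the 39 (Ndufa8, Ndufa11, Ndufaf4 and Ndufaf5), in 2.07% of the 27025 genes with a window and in 4.26% of the 10439 tested genes among them. In Ndufaf4 it lay at bases −112 to −105 counted from the start, in Ndufa11 at −59 to −52, in Ndufa8 at −9 to −2 and in Ndufaf5 at bases 18 to 25 after it. CCGGAAG or its reverse CTTCCGG was in 5 (Ndufaf1, Ndufb6, Ndufb7, Ndufs3 and Ndufs8), against 9.93% of all genes with a window and 19.7% of the tested ones. AAGATGGCG, the motif of YY1, was in 5 (Ndufa9, Ndufc1, Ndufs4, Ndufs6 and Ndufs7), against 1.64% of all and 3.51% of tested genes. All 5 of these matches were on the gene's own strand and lay after the start, between bases 23 and 44. The cyclic AMP response element TGACGTCA was in 3 (Ndufa10, Ndufa11 and Ndufb2), against 2.03% of all and 3.46% of tested genes. TCAAGGTCA, the motif of the estrogen-related receptors, was in 0, against 0.466% of all and 0.316% of tested genes. None of the 5 motifs contains another, and a match describes these letters only.

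Most subunits shared one order of the WT libraries. Of the 36 subunits, 33 were highest of all 6 libraries in WT replicate 3, and 26 were lowest in WT replicate 1; for both at once the count was 24, or 66.7%, against 5.58% of all tested genes. Under 4 other scalings of the libraries that count was 17 to 24. Both at once also held in 29.7% of 195 other genes averaging 50 FPKM or more with transcripts under 800 nt. Of the 20 subunits of that length it held in 60.0%, and of the 9 complex III subunits in 44.4%. The median subunit was at 354, 433 and 526 FPKM (WT) against 418, 432 and 376 FPKM (KO). The 36 subunits together made up 2.93%, 3.26% and 3.77% of the FPKM sum in WT and 3.31%, 3.29% and 3.16% in KO. The 3 KO libraries thus lay between the lowest and the highest WT library. The ratio of the highest to the lowest library had a median of 1.45 over the subunits in WT and 1.13 in KO, and the WT range was the wider of the 2 in 35 of 36 subunits, against 57.1% of all tested genes. The exception was Ndufa5.

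**Figure D3:**
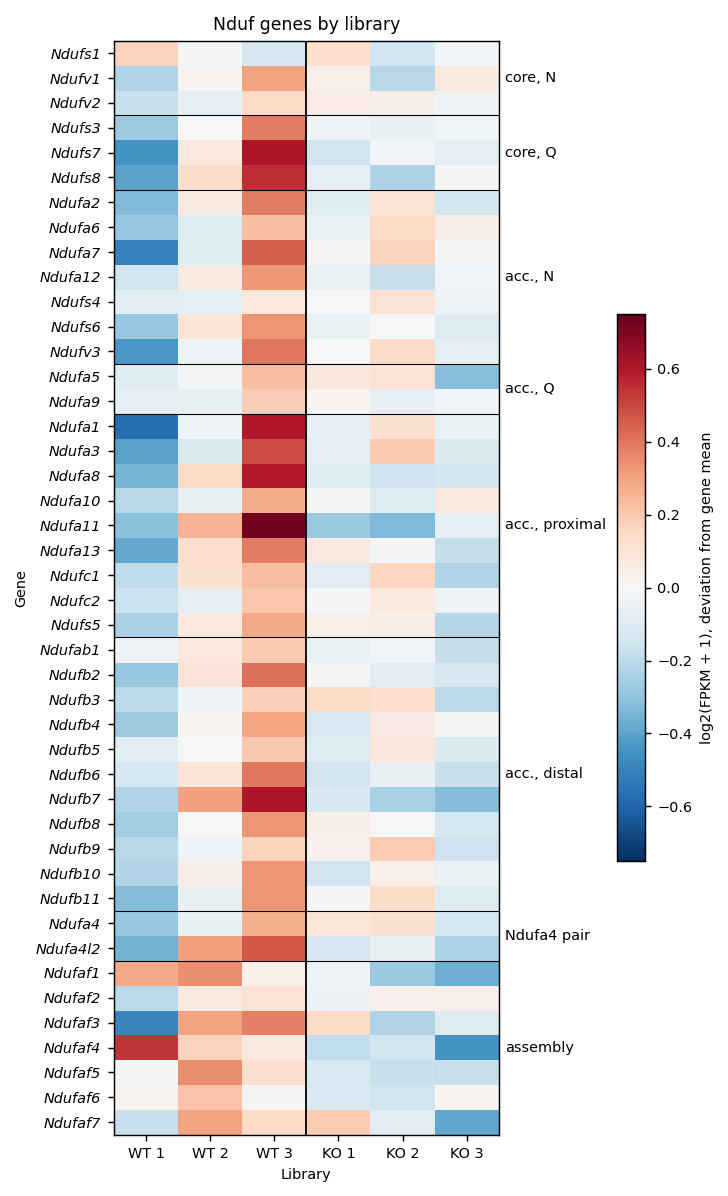
Deviation of log2(FPKM + 1) from each gene's mean over the 6 libraries (colour), for 44 Nduf genes (rows, grouped by place in the complex) and the 6 libraries (columns). WT replicate 1 is blue and WT replicate 3 red for nearly all subunits, Ndufs1 runs the other way, and among the 7 assembly factors WT replicate 3 is highest in 2.

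The direction of the subunit median depended on those 2 libraries. Without WT replicate 3 it was 0.09, and without WT replicate 1 it was −0.19, with 0 subunits or assembly factors called in either fit. At an unadjusted p under 0.05 there were 11 Nduf genes without WT replicate 1 and 2 without WT replicate 3. Shares of all tested genes are not given for these 2 fits, and with all 6 libraries the share was 19.2%. These counts are therefore not read as a result about the Nduf genes. WT replicate 3 also held the most hemoglobin and other erythroid marker RNA, with 14389 FPKM summed over 7 genes, against 3070 to 5063 FPKM in the other 5 libraries. Skeletal muscle, which is rich in complex I, had 10 of 10 markers detected in every library, summing to 362 FPKM in KO replicate 1 and 1411 to 2059 FPKM in the other 5; all 10 had a negative fold change, with a median of −0.66 and 0 called. Macrophage markers (8 of 8 detected) summed to 119 to 176 FPKM in WT and 163 to 226 FPKM in KO, and all 8 had a positive fold change, with a median of 0.35 and 0 called. The summed brown adipocyte markers (10 of 10 detected) ran from 21059 to 26522 FPKM in WT and from 20178 to 22070 FPKM in KO, with 6 of the 10 negative, a median of −0.15 and 2 called, Elovl3 and Plin1, both lower. Ucp1, the uncoupling protein, was at 48.9% of its WT mean in KO without overlap between groups (log2 fold change −1.08, limma adjusted p 0.0804). The part of these cell types in the subunit levels was not tested.

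Transcript length moved with the difference between these WT libraries. Most subunit transcripts are short, with a median of 745 nt, against 2777 nt over all tested genes. Among 195 other genes averaging 50 FPKM or more, with transcripts under 800 nt, WT replicate 3 exceeded WT replicate 1 by a median of 0.47 on the log2 scale, and the 20 subunits of that length by 0.57. Between 1200 and 2000 nt the medians were 0.21 over 427 other genes and 0.41 over 6 subunits. Above 3000 nt it was −0.21 over 335 other genes, with the subunit Ndufab1 at 0.23 and the assembly factor Ndufaf4 at −0.46. Once the GC and length trend of each library was subtracted, the subunit median deviation ran from −0.12 in WT replicate 1 to 0.17 in WT replicate 3, where it had run from −0.25 to 0.33. Removing that trend left the subunit median fold change at −0.01 and the assembly factor median at −0.21.

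**Figure D4:**
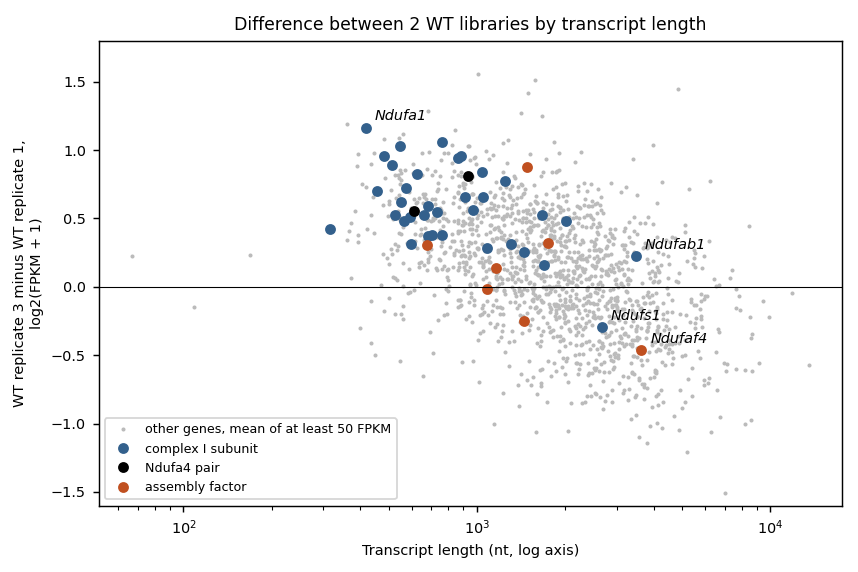
Difference between WT replicate 3 and WT replicate 1 in log2(FPKM + 1) (y axis) against transcript length in nt (x axis, log scale), for 1516 other genes averaging 50 FPKM or more (grey) and 44 Nduf genes (coloured); 4 grey genes lie outside the y axis. The short subunits sit above 0 with other short genes. Of the 4 Nduf transcripts over 2000 nt, Ndufs1 and Ndufaf4 sit below 0, while Ndufa10 and Ndufab1 sit above it.

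Of the 7 nuclear core subunits, 0 passed in limma and 0 had an unadjusted p under 0.05, where 2.21% and 19.2% of all tested genes did. The core of the N module is formed by Ndufv1, which binds NADH and flavin, with Ndufv2 and Ndufs1, which carry iron-sulfur clusters. Ndufv1 was at 301, 356 and 435 FPKM (WT) against 361, 305 and 369.9 FPKM (KO), so that the KO values fell inside the WT range (log2 fold change −0.07, 95% interval −0.45 to 0.32). Ndufv2 was at 355, 382 and 442 FPKM (WT) against 415, 413 and 392 FPKM (KO), again inside it (log2 fold change 0.05). Ndufs1, the largest subunit, was at 232, 205 and 189 FPKM (WT) against 225, 187 and 203 FPKM (KO). It was the one subunit with WT replicate 1 highest and WT replicate 3 lowest among WT libraries, and its log2 fold change was −0.02 (95% interval −0.35 to 0.30).

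As deposited, levels of Ndufs1 and Ndufv1, whose proteins stand next to each other in the complex, therefore did not keep a fixed ratio. Per unit length, Ndufs1 stood at 0.769, 0.577 and 0.434 of Ndufv1 in WT replicates 1, 2 and 3 and at 0.625, 0.612 and 0.55 in KO replicates 1, 2 and 3. The KO ratios lay inside the WT range. The Ndufs1 transcript is 2661 nt long and 45.1% GC, and the Ndufv1 transcript is 1661 nt long and 56.7% GC. On the log2(FPKM + 1) scale, Ndufs1 deviated from its mean by 0.17 (WT replicate 1) and −0.13 (WT replicate 3). Ndufv1 deviated by −0.22 and 0.30. Once the GC and length trend of each library was subtracted, these were 0.09 and −0.003 for Ndufs1 and −0.08 and 0.06 for Ndufv1. An antisense gene, Ino80dos, overlaps exons of Ndufs1, and the handling of strand is not given in the sources used here.

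In the Q module, Ndufs7 helps line the quinone-binding site, Ndufs8 carries iron-sulfur clusters towards it, and Ndufs3 is a structural core protein. Ndufs3 was at 423, 510.0 and 669 FPKM (WT) against 500.2, 492 and 505 FPKM (KO), where the highest library was 1.02 times the lowest. Ndufs7 was at 189, 273 and 394 FPKM (WT) against 232, 255 and 246 FPKM (KO). Ndufs8 was at 173, 251 and 336 FPKM (WT) against 217, 194 and 229 FPKM (KO). In all 3 genes the KO values lay inside the WT range, and the widest WT range was that of Ndufs7, with a 2.09-fold span. Fold changes of Ndufs3, Ndufs7 and Ndufs8 were −0.07, −0.16 and −0.20 on the log2 scale, and each turned positive when WT replicate 3 was left out (0.10, 0.11 and 0.03).

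Among accessory subunits of the peripheral arm, the 7 of the N module had log2 fold changes from −0.16 (Ndufa12) to 0.10 (Ndufa7), and mean levels from 182 FPKM for Ndufs4 to 861 FPKM for Ndufa6. Ndufs4, an accessory subunit whose loss causes complex I deficiency in mice, was the steadiest subunit in WT, at 172, 173 and 192 FPKM, and was at 182, 196 and 177 FPKM in KO replicates 1, 2 and 3. Ndufa6 and Ndufa7 had the largest positive fold changes among Nduf genes. Ndufa6 was at 703, 802 and 1001 FPKM (WT) against 825, 950.4 and 882 FPKM (KO). Ndufa7 was at 222, 297 and 433 FPKM (WT) against 314, 355 and 315 FPKM (KO). Both genes overlapped between groups, and without WT replicate 1 both fold changes were negative (−0.02 and −0.13). The accessory Q module subunits Ndufa5 and Ndufa9 had log2 fold changes of −0.08 and −0.04.

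In the membrane arm, Ndufb7 and Ndufa11 had the lowest fold changes of all subunits. Ndufb7 sits in the distal arm and Ndufa11 in the proximal arm, at the contact with complex III in supercomplexes. Ndufb7 (Entrez gene 66916, chromosome 8, 83566758 to 83571623, plus strand) was at 299, 433 and 532 FPKM (WT) against 321, 296 and 279 FPKM (KO). WT replicate 1 lay among the KO values, and the other WT libraries lay above all of them. The log2 fold change was −0.46 (SE 0.21, 95% interval −0.93 to 0.01, limma adjusted p 0.27), and it was −0.68 without WT replicate 1 and −0.27 without WT replicate 3.

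Ndufa11 (Entrez gene 69875, chromosome 17, 56717762 to 56724248, plus strand) was at 33.6, 50.4 and 69.8 FPKM (WT) against 34.3, 33.0 and 39.8 FPKM (KO). The order of its WT libraries was like that of Ndufb7, with WT replicate 1 among the KO values. The KO order differed: KO replicate 3 was the highest KO library for Ndufa11 and the lowest for Ndufb7. The log2 fold change was −0.45 (SE 0.24, limma adjusted p 0.343), −0.72 without WT replicate 1 and −0.21 without WT replicate 3. Its level was far below that of the other subunits, whose means began at 182 FPKM, although the proteins are built into the complex in equal number, apart from the acyl carrier protein Ndufab1, which is present as a pair. Exons of Vmac overlap those of Ndufa11 on the opposite strand, so their reads may be shared. Both genes passed under array weights (Ndufb7 −0.49, limma adjusted p 0.023; Ndufa11 −0.51, 0.0316), a fit in which the weight of WT replicate 2 was 6.70 and those of the other libraries 0.37 to 1.67. That fit called 3181 of the 13331 tested genes and 6 of the 45 Nduf genes.

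The proximal arm genes other than Ndufa1 and Ndufa11, 7 in number, had fold changes from −0.26 (Ndufa8) to 0.02 (Ndufc2). Ndufa8 was at 387, 544 and 746 FPKM (WT) against 463, 443 and 446 FPKM (KO), a narrow KO band inside a WT range of 1.93-fold. Ndufa3 had a WT span of 1.86-fold, from 517 to 959 FPKM, and KO values from 633 to 784 FPKM. The distal arm was represented by 11 genes, with fold changes from −0.46 (Ndufb7) to 0.04 (Ndufb9). Ndufb9 was the most abundant complex I subunit, at 962, 1087 and 1253 FPKM (WT) against 1135, 1269 and 997 FPKM (KO), and Ndufb8 followed with a mean of 1060 FPKM over the 6 libraries. Ndufab1, whose protein also serves mitochondrial fatty acid synthesis, was at 423, 456 and 495 FPKM (WT) against 416, 426 and 382 FPKM (KO) (log2 fold change −0.17, limma adjusted p 0.538).

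There are 2 subunit genes on the X chromosome, where copy number differs between the sexes, and sex coincided with genotype. How many of the X copies were active was not measured. Ndufa1 (Entrez gene 54405, X chromosome, 37187588 to 37191238) was at 238, 346 and 535 FPKM (WT) against 338, 382 and 342 FPKM (KO). It had the widest WT span of any Nduf gene, 2.25-fold, and a log2 fold change of 0.0007 (95% interval −0.59 to 0.59). Ndufb11 (Entrez gene 104130, X chromosome, 20615326 to 20617619) was at 505, 609 and 795 FPKM (WT) against 635, 695 and 589.9 FPKM (KO) (log2 fold change 0.03, 95% interval −0.38 to 0.44). Both genes overlapped between groups and followed the WT order of the autosomal subunits. The fold change of Ndufa1 ran from −0.28 without WT replicate 1 to 0.30 without WT replicate 3, and its sign also turned under the trimmed mean of M-values and median-of-ratios scaling, so no direction is given.

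Ndufa4 was the most abundant gene with the Nduf name, at 1297, 1521 and 1904 FPKM (WT) against 1684, 1712 and 1441 FPKM (KO) (log2 fold change 0.05, limma adjusted p 0.914). Its relative Ndufa4l2, a gene known to be induced by hypoxia, was at 8.79, 14.5 and 16.2 FPKM (WT) against 10.5, 11.03 and 9.67 FPKM (KO) (log2 fold change −0.27, limma adjusted p 0.525). It was −0.52 without WT replicate 1 and −0.11 without WT replicate 3. Ndufa4 exceeded Ndufa4l2 by 105 to 148 times in WT and 149 to 160 times in KO. The KO ratios were all above the WT ratios, by a margin of 147.6 in WT replicate 1 against 149.0 in KO replicate 3, which is smaller than the spread within WT.

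Other entries into the quinone pool and the next complex in the chain were read from lists of their own. Of 12 genes for succinate dehydrogenase, electron transfer flavoprotein and other quinone-reducing enzymes, 0 passed in limma and 3 had an unadjusted p under 0.05, with a median log2 fold change of −0.02. Chdh, choline dehydrogenase, was at 5.08, 7.68 and 4.64 FPKM (WT) against 3.95, 2.74 and 1.54 FPKM (KO) (log2 fold change −0.89, limma adjusted p 0.117). Gpd2, the mitochondrial glycerol 3-phosphate dehydrogenase, was at 91.0, 66.5 and 65.4 FPKM (WT) against 62.7, 33.9 and 42.5 FPKM (KO) (−0.70, limma adjusted p 0.153). Sqrdl, sulfide:quinone oxidoreductase, went the other way, at 15.0, 14.9 and 14.7 FPKM (WT) against 17.7, 19.7 and 18.0 FPKM (KO) (0.30, limma adjusted p 0.258), and was named after its values were seen. None of the 3 overlapped between groups, and neither did Sdhd, which gives 3 lower and 1 higher in KO among the 12. Of all tested genes, 24.9% did not overlap, 19.2% had an unadjusted p under 0.05 and 2.21% were called. Of 9 complex III subunits 0 passed in limma, with 0 at an unadjusted p under 0.05 and a median of −0.10. Cyc1 and Uqcrc1 had the smallest p-values (log2 fold changes −0.18 and −0.20, limma adjusted p 0.597 and 0.66), and without WT replicate 3 these were −0.03 and 0.01. WT replicate 3 was the highest library in 8 of the 9 complex III genes, as in 33 of the 36 complex I subunits.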

How the data were processed

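The authors deposited 1 table of FPKM values for 19241 genes and 6 libraries, per the file headers, rounded to 2 decimals. HISAT2 2.0.4, Bowtie2 2.2.5, DESeq2 and the build mm10 are named in the submitters' processing notes, with no role given; the quantification tool, annotation and strand handling are not given in the sources used here. The groups came from the sample titles. FPKM are not counts, so limma 3.58.1 in R 4.3.3 was fitted to log2(FPKM + 1) (lmFit, eBayes with trend, no covariates) over genes averaging 0.5 FPKM or more, with Benjamini-Hochberg adjustment over all of them; the fit was tested on simulated data. A fold change on this scale understates the change of low genes. The 45 members and all lists were chosen with earlier results of these data known. All 45 enter the counts and medians; the values of 1 are not reported here. Values were given for the other core, X-linked, extreme, non-overlapping and assembly genes, the Ndufa4 pair, and the 2 smallest p-values of each other list; further members named beyond this rule (Ndufs4, Ndufa8, Ndufa3, Ndufb8 and Ndufab1) were chosen after their values were seen. Depth was estimated from the steps between low FPKM values of single-transcript genes of 500 to 1300 nt at 13850000 to 15050000 reads per library (77.2% to 81.8% of 451 to 499 values lay within 0.2 of a whole read). The depth was chosen to bring these same values close to whole reads, so that share is no independent check. At that depth the fewest reads behind any Nduf value were about 95.4, in Ndufaf5. Lengths and GC content came from GENCODE vM21 transcripts, and coordinates and promoters from RefSeq GRCm38.p6, the same build as mm10. Exons of 15 members overlap an antisense gene, and 5 (Ndufa12, Ndufb11, Ndufs3, Ndufs5 and Ndufs6) have another gene matching 50% or more of their transcript at 95% identity (BLAST 2.17.0), so their values may be split or shared. Of these matching genes only BC002163, the match of Ndufs5, has deposited values, at most 1.12 FPKM in any library. Mitochondrially encoded ND genes and Ndufb1 were not analysed here.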

Additional observations from a re-analysis of the deposited data

How the results depend on the processing

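The count of 0 Nduf genes called held in 18 of 20 alternatives; array weights gave 6, all lower in KO (Ndufa11, Ndufa4l2, Ndufaf1, Ndufaf4, Ndufaf5 and Ndufb7), and removal of the GC and length trend, chosen after seeing the data, gave 1 (Ndufaf4). Leaving out each library in turn gave 0 Nduf genes. Over all genes the 295 called became 35 with no filter on low values, 191 with a common sum of FPKM, 3181 with array weights, 537 with the GC and length trend removed and 31 to 370 without 1 library, lowest without WT replicate 3. The 2 groups share replicate numbers: the replicate block gave 167 genes and, with the trend removed, 189, and it called 0 Nduf genes in both. Deviations of same-numbered libraries correlated at 0.068, 0.043 and 0.043, and those of unlike-numbered libraries at −0.078 to 0.029. The same-numbered values were thus the highest, but all were small, and the numbers were not taken as pairs in the main fit. The subunit median ran from −0.19 to 0.09 and the assembly factor median from −0.38 (without WT replicate 1) to −0.10 (without WT replicate 2) when 1 library was left out; without KO replicate 1 the latter was −0.32. Fstl1 missed the threshold with no filter on low values (limma adjusted p 0.0606).

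Among 29 named genes, 14 kept their sign in all alternatives. Signs turned in genes near 0: Ndufs1 with quantile normalization (0.032) and a common sum (0.0074); Ndufa1 and Ndufaf2 with the trimmed mean of M-values (−0.021 and −0.0059) and median-of-ratios scaling (−0.024 and −0.0087); Ndufa1, Ndufaf2 and Ndufs1 with array weights (−0.0013, −0.069 and 0.038). With the GC and length trend removed, with or without the block, they turned in Ndufa1 (−0.024), Ndufa4 (−0.021), Ndufaf2 (−0.0041), Ndufs3 (0.0042), Ndufv1 (0.046) and Ndufv2 (−0.0088). Leaving out 1 library, fold changes ran from −0.28 to 0.30 in Ndufa1, −0.082 to 0.19 in Ndufa4, −0.019 to 0.24 in Ndufa6, −0.13 to 0.35 in Ndufa7, −0.081 to 0.073 in Ndufaf2, −0.40 to 0.036 in Ndufaf3, −0.12 to 0.20 in Ndufb11, −0.049 to 0.14 in Ndufb9, −0.092 to 0.056 in Ndufs1, −0.23 to 0.10 in Ndufs3, −0.42 to 0.11 in Ndufs7, −0.45 to 0.032 in Ndufs8, −0.19 to 0.071 in Ndufv1, −0.016 to 0.14 in Ndufv2 and −0.39 to 0.013 in Uqcrc1. Without a change of sign, they ran from −0.52 to −0.11 in Ndufa4l2, −0.22 to −0.10 in Ndufaf6, −0.33 to −0.037 in Ndufaf7, −0.33 to −0.030 in Cyc1, −0.49 to −0.23 in Ecsit and −0.31 to −0.15 in Tmem126a. The cause of these shifts was not tested. Chdh has no value with the filter at a mean of 5 FPKM.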
